A study of Homo sapiens with 12 samples.

Results

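The genes of homologous recombination and Fanconi repair described here are 34 DNA repair and checkpoint genes, listed by symbol for their known function. No measured value enters the rule, but these genes and the lists set beside them were chosen with earlier results of these data known. All 34 were present among the 56638 gene symbols of the count table, and all 34 were among the 16080 genes that passed the filter on low counts. They were measured by RNA-seq in 501Mel cells, an established human melanoma line whose growth is driven by a mutant BRAF kinase. The 12 libraries fell into 6 groups of 2, and every culture was exposed for 48 h. The groups were vehicle (DMSO), 1 µM vemurafenib (Vem), 5 µM resveratrol (RSV), 5 µM RSV with 1 µM Vem (RSV+Vem), 10 nM TCDD, and 5 µM RSV with TCDD (RSV+TCDD). For RSV+TCDD the treatment protocol gives 10 nM TCDD, whereas the source label of those libraries gives 1 nM. Vem is a BRAF inhibitor that the study examined as a ligand of the aryl hydrocarbon receptor (AhR), TCDD is the canonical ligand of that receptor, and RSV was used as its antagonist. All groups come from 1 cell line, and the labels do not say whether the libraries of a group came from separate cultures, so p-values measure the spread between these libraries, which may be technical.

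Homologous recombination repairs broken DNA by copying the sister chromatid and therefore works mainly in S and G2 phase. The MRE11A-RAD50-NBN complex, RBBP8 (CtIP), EXO1 and BLM cut back the broken ends, BRCA1 with BARD1 and PALB2 brings in BRCA2, and BRCA2 prepares the resected strand for pairing with that copy, with the help of the paralogs RAD51B, RAD51C, RAD51D, XRCC2 and XRCC3. The Fanconi pathway deals with crosslinks between the DNA strands. Its core complex, with the ubiquitin-conjugating enzyme UBE2T, attaches ubiquitin to FANCD2 and FANCI, and the kinases ATM and ATR signal the damage through CHEK2 and CHEK1. Transcripts of many of these genes are known to be more abundant in dividing than in resting cells, in part through E2F factors, which bind promoters of genes used for DNA replication.

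RefSeq promoters, from 250 bases before to 50 after a transcript start on GRCh38.p14, were matched for 31 of the 34 genes. Each was searched on both strands for the E2F words TTTCCCGC, TTTCGCGC, TTTGCCGC and TTTGGCGC. Among genes that mark S phase 10 of 12 matched promoters held a word, and among those that mark G2 and M phase 1 of 12. Of the 31 promoters, 7 held at least 1 such word, or 22.6%, against 3.33% of all 27305 promoters. The 7 are printed below from 200 bases before to 30 after the start, 5′ to 3′ on the strand of the gene, since they show where the words lie; capitals mark an E2F word or its reverse complement. A match describes letters and not a bound site. With the start counted as base 1, the word began at 22 in XRCC2, at 5 in EXO1, at -2 in FANCD2, at -5 in CLSPN and at -7 in TOPBP1. It began at -172 in FANCA, and FANCC held words at -172 and -46.
XRCC2, chr7:152676112-152676341, minus strand: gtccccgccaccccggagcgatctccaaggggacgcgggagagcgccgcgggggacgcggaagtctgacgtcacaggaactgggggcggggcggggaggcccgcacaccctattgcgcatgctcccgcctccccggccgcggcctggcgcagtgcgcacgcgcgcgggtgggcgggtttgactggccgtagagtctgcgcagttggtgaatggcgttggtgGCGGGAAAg
FANCA, chr16:89816618-89816847, minus strand: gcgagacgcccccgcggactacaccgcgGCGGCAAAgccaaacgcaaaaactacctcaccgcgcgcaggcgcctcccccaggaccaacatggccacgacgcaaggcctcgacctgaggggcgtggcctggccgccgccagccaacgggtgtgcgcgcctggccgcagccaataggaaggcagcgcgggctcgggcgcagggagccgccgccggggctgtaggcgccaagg
FANCC, chr9:95317680-95317909, minus strand: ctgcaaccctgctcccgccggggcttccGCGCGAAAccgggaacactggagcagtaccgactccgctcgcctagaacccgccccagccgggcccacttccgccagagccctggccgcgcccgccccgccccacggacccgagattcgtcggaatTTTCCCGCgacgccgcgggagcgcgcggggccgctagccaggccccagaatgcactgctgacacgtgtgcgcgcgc
FANCD2, chr3:10026237-10026466, plus strand: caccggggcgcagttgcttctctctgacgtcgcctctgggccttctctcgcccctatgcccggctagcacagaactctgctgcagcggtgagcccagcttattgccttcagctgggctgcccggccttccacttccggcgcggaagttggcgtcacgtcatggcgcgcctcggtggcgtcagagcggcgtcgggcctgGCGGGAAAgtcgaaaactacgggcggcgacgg
EXO1, chr1:241848004-241848233, plus strand: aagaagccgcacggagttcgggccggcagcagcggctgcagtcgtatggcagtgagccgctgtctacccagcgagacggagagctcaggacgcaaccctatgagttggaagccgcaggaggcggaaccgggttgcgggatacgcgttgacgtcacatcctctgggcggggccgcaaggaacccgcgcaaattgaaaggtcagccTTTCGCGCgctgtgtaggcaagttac
TOPBP1, chr3:133661912-133662141, minus strand: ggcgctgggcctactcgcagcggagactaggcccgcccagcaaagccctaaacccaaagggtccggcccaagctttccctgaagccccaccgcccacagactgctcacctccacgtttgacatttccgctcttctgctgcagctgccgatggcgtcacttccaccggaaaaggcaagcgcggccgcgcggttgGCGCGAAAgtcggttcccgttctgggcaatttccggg
CLSPN, chr1:35769949-35770178, minus strand: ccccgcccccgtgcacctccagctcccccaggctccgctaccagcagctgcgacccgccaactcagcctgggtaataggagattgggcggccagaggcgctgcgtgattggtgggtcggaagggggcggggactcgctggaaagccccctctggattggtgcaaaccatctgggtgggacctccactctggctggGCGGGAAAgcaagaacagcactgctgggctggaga

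For contrast, the promoters of BRCA2, the gene with the deepest fall under Vem, and of FANCF, which was not called under Vem, held no E2F word in the searched window and are printed over the same 230 bases.
BRCA2, chr13:32315308-32315537, plus strand: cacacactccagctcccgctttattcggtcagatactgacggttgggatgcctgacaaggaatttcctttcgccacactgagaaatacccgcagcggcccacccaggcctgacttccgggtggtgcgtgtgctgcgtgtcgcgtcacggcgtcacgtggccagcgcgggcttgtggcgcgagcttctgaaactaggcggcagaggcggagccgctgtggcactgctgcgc
FANCF, chr11:22625794-22626023, minus strand: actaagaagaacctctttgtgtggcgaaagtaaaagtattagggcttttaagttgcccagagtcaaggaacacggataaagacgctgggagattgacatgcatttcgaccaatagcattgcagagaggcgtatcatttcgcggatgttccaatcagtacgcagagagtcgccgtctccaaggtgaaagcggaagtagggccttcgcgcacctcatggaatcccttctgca

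The same promoters were searched for 3 other kinds of word. The CCAAT box (CCAAT) was found in 14 of 31 promoters, or 45.2%, against 35.7% of all promoters. The CHR word TTTGAA, common in promoters of mitotic genes, was found in 4 of 31, or 12.9%, against 15.4%. The core word of the AhR binding site, GCGTG, was found in 17 of 31, or 54.8%, against 36.3% of all promoters. That share was not particular to the repair genes. GCGTG was found in 8 of 12 matched promoters of S phase markers and 8 of 12 of G2 and M phase markers, or 66.7% each. The CCAAT box was found in 9 and 12 of these 12, and the CHR word in 0 and 8. None of these shares was tested.

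Levels are given as TMM-scaled CPM, that is counts scaled to the library's total on genes and its TMM factor, and differences as log2 fold changes. The libraries held between 8378655 and 25076925 counts on genes, RSV+Vem replicate 2 being the shallowest, and the lowest count of any of the 34 genes in any library was 38 (RAD54B in Vem). The 34 genes together took 0.197% and 0.209% of gene counts in vehicle, 0.0771% and 0.0773% in Vem, 0.219% and 0.243% in RSV, 0.144% and 0.162% in RSV+Vem, 0.189% and 0.186% in TCDD, and 0.211% and 0.215% in RSV+TCDD. The common biological coefficient of variation was 0.0915. Melanocyte-lineage markers summed to between 9356 and 34823 CPM in every library, keratinocyte markers to at most 26.0, fibroblast markers to at most 39.6, and leukocyte and endothelial markers to at most 0.538. Spike-in CPM, relative to counts on genes, differed within groups, 389 against 904 in RSV+Vem and 631 against 937 in RSV+TCDD, which matters wherever spike-in scaling is named. No share of all genes called was taken under that scaling, so counts of called genes under it have no background beside them.

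**Figure D1:**
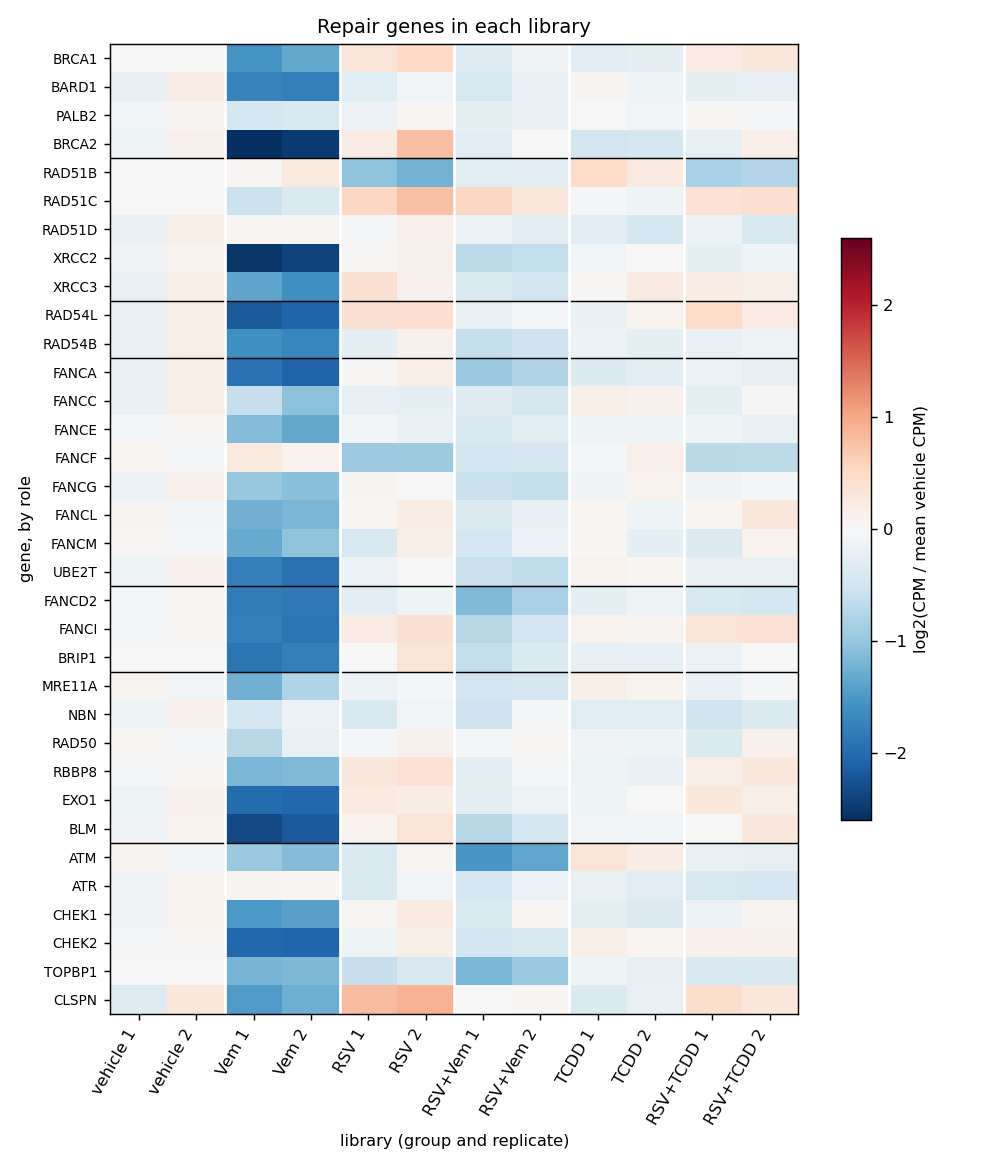
Level of each of the 34 genes (rows, by role) in each of the 12 libraries (columns, by group and replicate), as log2 of the TMM-scaled CPM over the mean of the vehicle libraries; blue is lower and red is higher. The Vem columns are dark blue for most rows and pale for RAD51B, RAD51D, FANCF and ATR. For the other rows except ATM and NBN, the RSV+Vem columns are less blue than the Vem columns, only slightly so for TOPBP1. NBN is similar in Vem and RSV+Vem, while ATM, RAD51B, RAD51D, FANCF and ATR are bluer in RSV+Vem than in Vem.

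Exposure to Vem lowered 29 of the 34 genes and raised 0, where 27.0% of all genes tested were called lower and 25.4% higher. The median of the 34 was a log2 fold change of -1.30, or 2.46-fold lower, against -0.03 over all genes tested. The 5 genes that did not pass were RAD51B, RAD51D, FANCF, ATR and NBN. Scaled to the ERCC spike-ins, the median of the 34 was -1.95 and that of all genes -0.68, and 26 of the 34 were called lower. All 15 S phase markers and all 15 G2 and M phase markers were also called lower, with medians of -1.50 and -1.76. Mitochondrial transcripts took 10.7% and 8.99% of counts in Vem against 5.09% and 6.16% in vehicle. The part of the cycling markers and of mitochondrial transcripts in the fall of the repair genes was not tested, and in bulk RNA fewer cells in cycle and less RNA per cell cannot be told apart. With 2 libraries a group the smallest p of an exact two-sided test is 0.333, so the p-values here rest on the spread that edgeR's quasi-likelihood test shares across genes, with Benjamini-Hochberg adjustment.

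Within the BRCA1-BRCA2 axis all 4 genes fell. BRCA2 (chr13:32889223-32974405, GRCh37, plus strand, 27 exons in the canonical transcript), which acts on resected DNA, stood at 50.6 and 58.6 CPM in vehicle and at 8.97 and 9.76 in Vem. Each Vem library was thus well below either vehicle library, and the log2 fold change was -2.54 ± 0.19 (SE; adjusted p = 2.04e-08), or 5.83-fold lower. BARD1 (chr2:215590370-215674407, minus strand), the obligate partner of BRCA1, went from 14.3 and 18.9 CPM to 5.01 and 4.84, a log2 fold change of -1.75 ± 0.18 (adjusted p = 4.91e-07). BRCA1 itself (chr17:41196312-41322262, minus strand) went from 117 and 116 CPM to 40.1 and 46.3, a log2 fold change of -1.44 ± 0.11 (adjusted p = 2.1e-08). PALB2 (chr16:23614481-23652642, minus strand), the bridge between BRCA1 and BRCA2, moved least, from 49.8 and 55.0 CPM to 38.2 and 39.96, a log2 fold change of -0.42 ± 0.11 (adjusted p = 0.00307).

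The paralogs RAD51B, RAD51C, RAD51D, XRCC2 and XRCC3, which assist strand pairing, divided into a pair that fell steeply and 3 that moved little. XRCC2 (chr7:152341861-152373278, minus strand) went from 25.6 and 29.0 CPM to 4.73 and 5.15, a log2 fold change of -2.47 ± 0.14 (adjusted p = 1.03e-09), or 5.54-fold lower. XRCC3 (chr14:104163946-104181841, minus strand) went from 34.2 and 43.9 CPM to 15.2 and 12.9, a log2 fold change of -1.48 ± 0.15 (adjusted p = 5.25e-07). RAD51C showed a shallow fall of -0.46 ± 0.12 (adjusted p = 0.00479), which lost its call without Vem replicate 1 (-0.38). RAD51B (chr14:68286496-69196935, plus strand) stood at 9.11 and 9.14 CPM in vehicle and 9.32 and 10.9 in Vem, with a log2 fold change of 0.15 and a 95% interval from -0.18 to 0.47 (adjusted p = 0.45). RAD51D (chr17:33419240-33448541, minus strand) stood at 7.49 and 9.43 CPM in vehicle and at 8.62 and 8.61 in Vem, so that the groups overlapped, and its interval ran from -0.34 to 0.38 (adjusted p = 0.927).

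Both RAD54 translocases, motor proteins that act during strand invasion, fell. RAD54L (chr1:46712133-46744152, plus strand) went from 37.6 and 48.3 CPM to 9.39 and 10.1, a log2 fold change of -2.14 ± 0.16 (adjusted p = 1.22e-08), or 4.41-fold lower. RAD54B went from 8.35 and 10.5 CPM to 3.13 and 2.92, a log2 fold change of -1.64 ± 0.20 (adjusted p = 3.39e-06). RAD54B is uncertain, because 65.5% of its canonical exon length lies under FSBP on the same strand, a gene that held 4 to 28 counts a library.

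Of the Fanconi core complex and its conjugating enzyme UBE2T, 7 of 8 genes fell. FANCA (chr16:89793091-89883385, minus strand), with 43 exons in its canonical transcript, went from 54.0 and 69.1 CPM to 16.3 and 14.6, a log2 fold change of -1.99 ± 0.13 (adjusted p = 5.57e-09). UBE2T (chr1:202300672-202311112, minus strand) went from 44.9 and 52.8 CPM to 14.2 and 12.8, a log2 fold change of -1.86 ± 0.12 (adjusted p = 4.32e-09). FANCL, the ubiquitin ligase subunit, FANCE, FANCM, the subunit that moves along DNA, and FANCG fell by 1.22, 1.22, 1.18 and 1.03 on the log2 scale. FANCC (chr9:97861336-98189078, minus strand) fell least of the called members of the core, from 12.8 and 16.1 CPM to 9.46 and 6.92, a log2 fold change of -0.81 ± 0.17 (adjusted p = 0.000826). FANCF (chr11:22644079-22647369, minus strand), an adaptor of the core encoded by 1 exon, stood at 21.8 and 20.6 CPM in vehicle and at 25.4 and 22.5 in Vem, with an interval from -0.08 to 0.43 (adjusted p = 0.232).

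Downstream of the core, FANCD2 (chr3:10068054-10143616, plus strand), FANCI (chr15:89787176-89860492, plus strand) and the helicase BRIP1 (chr17:59756500-59940920, minus strand) fell to a similar degree. FANCI had the highest level of all 34 genes in CPM, 246 and 258 in vehicle, and stood at 73.6 and 67.5 in Vem. Its log2 fold change was -1.84 ± 0.10 (adjusted p = 6.37e-10). FANCD2 went from 106 and 114 CPM to 31.0 and 30.2, a log2 fold change of -1.84 ± 0.12 (adjusted p = 2.87e-09). BRIP1 went from 37.05 and 36.6 CPM to 9.81 and 10.7, a log2 fold change of -1.85 ± 0.14 (adjusted p = 2.26e-08). The 3 changes lay within 1 standard error of one another.

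Among the genes of end resection and unwinding, 5 of 6 fell. BLM (chr15:91260577-91359396, plus strand), the Bloom helicase, went from 66.3 and 75.1 CPM to 14.0 and 15.6, a log2 fold change of -2.26 ± 0.14 (adjusted p = 2.33e-09), or 4.79-fold lower. EXO1 (chr1:242011269-242058450, plus strand), the long-range resection nuclease, went from 70.3 and 83.4 CPM to 19.1 and 18.8, a log2 fold change of -2.02 ± 0.12 (adjusted p = 1.1e-09). RBBP8 and the nuclease MRE11A fell by 1.17 and 1.00 on the log2 scale. The partners of MRE11A in the end-sensing complex moved less. RAD50 (chr5:131891711-131982041, plus strand) went from 34.8 and 33.1 CPM to 20.7 and 29.7, a log2 fold change of -0.44 ± 0.16 (adjusted p = 0.0338) that was no longer called without Vem replicate 1 (-0.19) or either vehicle replicate (-0.40 and -0.45). NBN went from 42.3 and 49.7 CPM to 33.7 and 41.2, with a log2 fold change of -0.30, an interval from -0.63 to 0.04 and no call (adjusted p = 0.124).

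Of the damage kinases and checkpoint adaptors, 5 of 6 fell, and the apical kinases ATM and ATR parted. CHEK2 (chr22:29083731-29138410, minus strand), the kinase that ATM activates, went from 52.8 and 55.0 CPM to 13.1 and 12.8, a log2 fold change of -2.05 ± 0.12 (adjusted p = 1.23e-09), or 4.15-fold lower. CHEK1 (chr11:125495058-125546150, plus strand), the kinase that ATR activates, went from 64.6 and 74.0 CPM to 24.6 and 25.9, a log2 fold change of -1.46 ± 0.14 (adjusted p = 3.32e-07). The ATR activator TOPBP1 and the CHEK1 adaptor CLSPN fell by 1.19 and 1.38 on the log2 scale. ATM (chr11:108093771-108239829, plus strand) went from 209 and 191 CPM to 102 and 91.3, a log2 fold change of -1.05 ± 0.12 (adjusted p = 2.82e-06). ATR (chr3:142167849-142297575, minus strand) stood at 72.7 and 81.6 CPM in vehicle and 81.2 and 79.5 in Vem, with overlapping groups and an interval from -0.19 to 0.31 (adjusted p = 0.703).

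Set per length of the canonical transcript, the order of the levels in vehicle ran from UBE2T, at 55.6 CPM per kb, and FANCI, at 53.3, through TOPBP1 at 33.8 and CHEK2 at 29.3, down to RAD51D at 0.849. These values depend on the lengths used, 9966 bases for RAD51D. The annotation that was counted may hold other lengths, since its release is not given. In Vem, UBE2T, FANCI and TOPBP1 were still the first 3, at 15.3, 14.9 and 14.9 CPM per kb. Below them the order was rearranged. ATR moved from position 21 to position 5, PALB2 from 17 to 6, and CHEK2 from 4 to 12, while BRCA2 became the lowest of the 34, at 0.784 CPM per kb against 4.57 in vehicle.

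**Figure D2:**
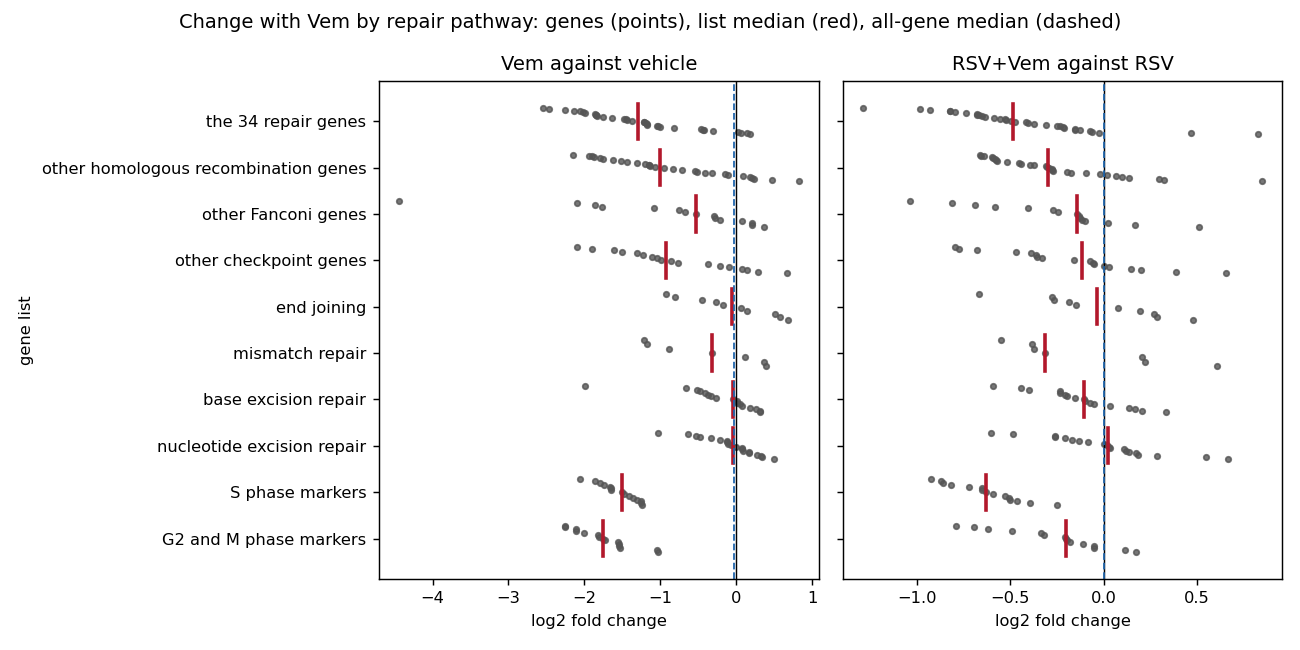
Log2 fold change with Vem for the 34 genes, 7 other repair or checkpoint lists and 2 lists of cell cycle markers, without RSV (left) and with RSV (right, own scale); points are genes, red bars list medians and the dashed line the median of all genes tested. The 34 genes and the S phase and G2 and M phase markers lie furthest to the left without RSV, and base excision and nucleotide excision repair are centred near 0 in both panels.

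The other repair pathways differed in how many of their genes fell with Vem, where 27.0% of all genes tested were called lower and 25.4% higher. Of 30 further homologous recombination genes, 22 fell and 2 rose, with a median log2 fold change of -1.01; RAD51AP1, which promotes strand pairing, fell by 2.15, and BRE, a subunit of a BRCA1-associated complex, rose by 0.83. Of 15 further Fanconi genes, 9 fell and 0 rose, with a median of -0.53, and 10 of the 15 had an unadjusted p below 0.05. HES1, a NOTCH target that was placed in that list as a core complex partner, had its steepest fall, by 4.44. Of 18 further checkpoint genes, 11 fell and 2 rose, with a median of -0.92; the phosphatase CDC25C fell by 2.10. By contrast, the medians of end joining (4 of 10 fell, 1 rose), base excision repair (7 of 17 fell, 2 rose) and nucleotide excision repair (4 of 20 fell, 4 rose) were -0.05, -0.04 and -0.04. Mismatch repair lay between, with 4 of 7 lower, 1 higher and a median of -0.32. The steepest falls in those lists were XRCC4 (-0.92) in end joining, NEIL3 (-1.99) in base excision, DDB2 (-1.03) in nucleotide excision and MSH6 (-1.21) in mismatch repair, and the largest rises were POLL (0.51) in end joining, ERCC1 (0.50) in nucleotide excision and PMS2 (0.37) in mismatch repair. The difference between lists is described by these counts and medians and was not itself tested.

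Genes that regulate the cell cycle moved alongside. With Vem, E2F1 fell by 1.05 log2 units, and E2F7 and E2F8, repressors of the same family, each fell by 1.82. A list of 12 regulators of G0/G1 held inhibitors of the cycle together with cyclins and E2F factors, including E2F1, E2F7 and E2F8. Its counts therefore do not describe cell cycle exit alone. Of these 12, 8 fell and 1 rose, CDKN2B (0.49). The steepest fall among called genes above a floor on the mean count was CCND1 (-2.13), and the lowest value in the list was -2.88. The S phase marker with the steepest fall was CDC45 (-2.06), and the G2 and M phase marker was CENPF (-2.26).

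RSV alone moved few of the repair genes. It raised 7 of the 34 and lowered 3, where 20.5% of all genes tested were called higher and 20.4% lower. The 7 that rose are a share close to that background, and the 3 that fell are below it. The median of the 34 was 0.03. Scaled to the ERCC spike-ins, 0 of the 34 were called. The genes called higher were CLSPN, RAD51C, BRCA2, BRCA1, RAD54L, RBBP8 and FANCI, and those called lower were RAD51B, FANCF and TOPBP1.

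CLSPN rose from 31.8 and 48.7 CPM in vehicle to 70.3 and 75.2 in RSV, a log2 fold change of 0.85 ± 0.15 (adjusted p = 0.000397); the vehicle libraries were far apart, and both RSV libraries lay above them. RAD51C rose from 29.2 and 29.9 CPM to 42.8 and 49.8, a log2 fold change of 0.65 ± 0.12 (adjusted p = 0.000421). BRCA2 stood at 63.2 and 93.2 CPM in RSV against 50.6 and 58.6 in vehicle, a log2 fold change of 0.52 ± 0.16 (adjusted p = 0.0184), which rests on RSV replicate 2 and fell to 0.21 without it. RAD51B went from 9.11 and 9.14 CPM to 4.40 and 3.89, a log2 fold change of -1.14 ± 0.17 (adjusted p = 6.87e-05). FANCF went from 21.8 and 20.6 CPM to 11.0 and 11.2, a log2 fold change of -0.93 ± 0.13 (adjusted p = 3.54e-05). RAD51B and FANCF, which Vem did not lower, were thus the members with the deepest falls under RSV. TOPBP1 fell by 0.49 on the log2 scale, and BRCA1, RAD54L, RBBP8 and FANCI rose by 0.44, 0.42, 0.34 and 0.31. The calls of BRCA2, RAD54L, RBBP8 and FANCI were lost without vehicle replicate 1, which left 6 of the 34 called, and also without RSV replicate 2, and that of RAD54L also without RSV replicate 1. Beside this, 9 of 15 G2 and M phase markers fell with RSV (median -0.48), while of 15 S phase markers 4 rose and 5 fell (median 0.01), and mitochondrial transcripts took 7.66% and 8.25% of counts in RSV against 5.09% and 6.16% in vehicle; their part in the values of the repair genes was not tested.

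**Figure D3:**
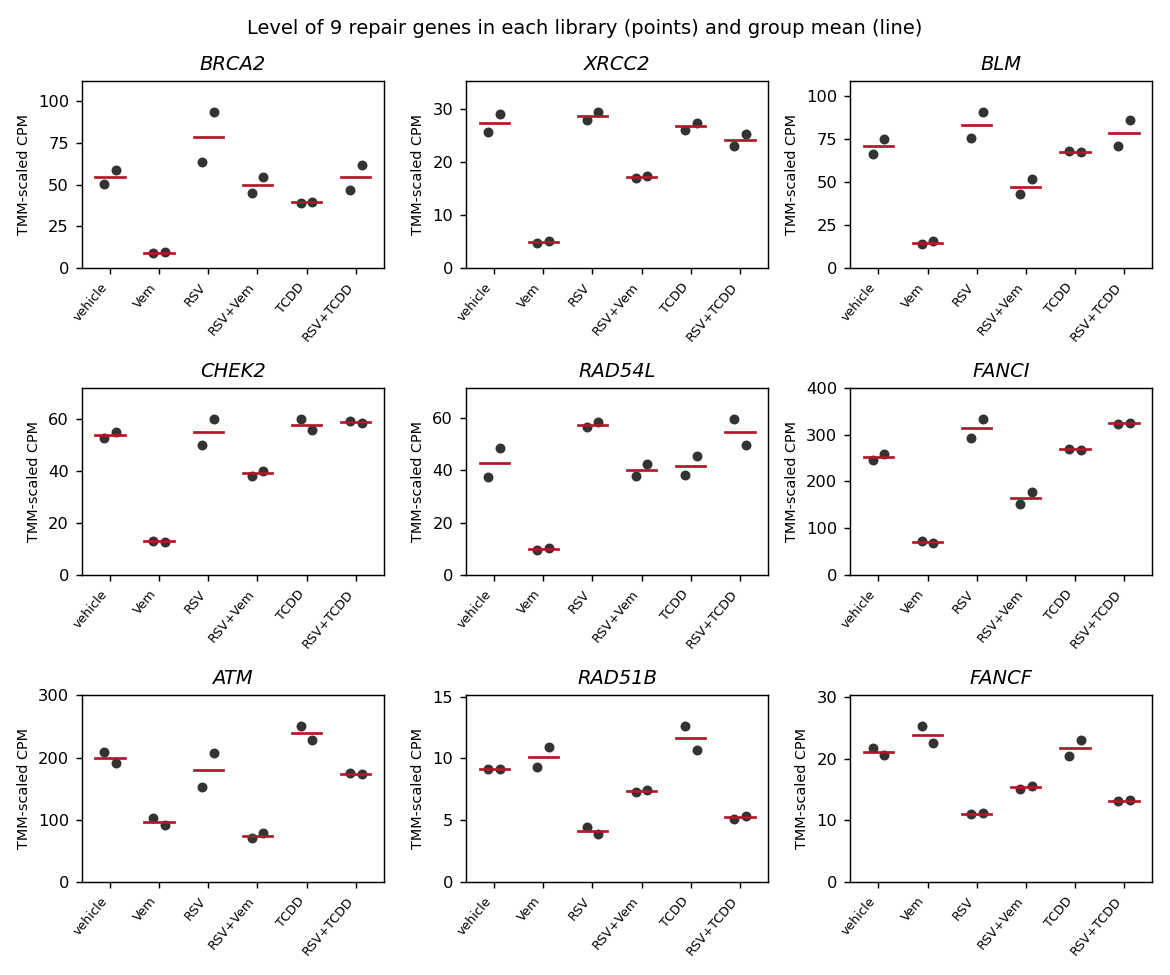
TMM-scaled CPM of 9 repair genes in each library (points, 2 per group) with the group mean (line), each panel on its own axis from 0. BRCA2, XRCC2, BLM, CHEK2, RAD54L and FANCI are lowest in Vem and higher in RSV+Vem, ATM is lowest in RSV+Vem, and RAD51B and FANCF are lowest in RSV.

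In the presence of RSV, Vem lowered 21 of the 34 genes and raised 2 (RSV+Vem against RSV), where 13.1% of all genes tested were called lower and 11.2% higher, and the median was -0.49. Against vehicle, RSV+Vem gave 16 lower and 1 higher (background 24.8% and 24.1%), with a median of -0.34. Against Vem, RSV+Vem gave 25 higher and 4 lower (background 19.2% and 18.7%), with a median of 0.98. The 3 comparisons share libraries. Without RSV+Vem replicate 1, 14 were called against RSV and 10 against vehicle. Spike-in scaling left 3 called against RSV and 6 against Vem. The RSV+Vem libraries had the lowest RNA integrity numbers in the labels, 8.7 and 8.6 against 9.1 to 9.7 in the other 10 libraries, and mitochondrial transcripts took 10.0% and 9.01% of their counts. The part of either in these differences was not tested.

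The difference between the effect of Vem with and without RSV was tested directly as an interaction. It was above 0 and called in 23 of the 34 genes, and below 0 and called in 0. Of all genes tested, 12.0% were called higher and 10.7% lower. The median interaction over the 34 was 0.80 against 0.02 over all genes tested. Scaled to the spike-ins the median was 0.92 against 0.15 over all genes, with 0 called. All 15 S phase markers and all 15 G2 and M phase markers had a called interaction of the same sign, with medians of 0.93 and 1.63, and their part in that of the repair genes was not tested.

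BRCA2, at 8.97 and 9.76 CPM in Vem, stood at 44.7 and 54.3 in RSV+Vem, against 63.2 and 93.2 in RSV. The interaction was 1.87 ± 0.26 (adjusted p = 0.000102), and RSV+Vem did not differ from vehicle beyond the spread (-0.15, interval from -0.51 to 0.20). XRCC2, at 4.73 and 5.15 CPM in Vem, stood at 16.97 and 17.4 in RSV+Vem and 27.97 and 29.4 in RSV, with an interaction of 1.73 ± 0.19 (adjusted p = 1.36e-05). BARD1 stood at 12.5 and 14.5 CPM in RSV+Vem and 13.3 and 15.8 in RSV, ranges that overlap, with an interaction of 1.63 ± 0.24 (adjusted p = 0.0002). RAD54L stood at 37.8 and 42.3 CPM in RSV+Vem and 56.5 and 58.3 in RSV, with an interaction of 1.61 ± 0.21 (adjusted p = 6.28e-05). EXO1 stood at 64.5 and 70.4 CPM in RSV+Vem and 91.5 and 88.4 in RSV, with an interaction of 1.60 ± 0.16 (adjusted p = 6.57e-06). XRCC2 in RSV+Vem remained below vehicle (-0.67 ± 0.12, adjusted p = 0.000282), whereas RAD54L (-0.11), BARD1 (-0.32) and EXO1 (-0.19) did not pass the test against vehicle. The interval of the difference from vehicle ran from -0.40 to 0.18 for RAD54L, from -0.65 to 0.02 for BARD1 and from -0.42 to 0.03 for EXO1.

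By role, the interaction was called in 3 of 4 genes of the BRCA1-BRCA2 axis, 3 of the 5 paralogs (RAD51B, XRCC2 and XRCC3), both RAD54 translocases, 5 of 8 core genes, all 3 of FANCD2, FANCI and BRIP1, 4 of 6 resection genes and 3 of 6 kinases and adaptors. In the BRCA1-BRCA2 axis PALB2, with 0.27, was the exception. Of the paralogs, RAD51C (0.24) and RAD51D (-0.27) were not called. The core genes not called were FANCC (0.66), FANCF (0.29) and FANCG (0.39), the resection genes NBN (0.24) and RAD50 (0.41), and the kinases and adaptors ATM (-0.25), ATR (-0.13) and CLSPN (0.55). RAD51B (0.68) stood at the edge, with an adjusted p of 0.0474 that passed 0.05 in none of the fits that left out 1 of the 8 libraries concerned. Both MRE11A (0.63) and FANCM (0.96) lost the call without Vem replicate 1 (0.41 and 0.83), RSV replicate 1 (0.58 and 0.72) or RSV+Vem replicate 2 (0.59 and 0.83). MRE11A also lost it without vehicle replicate 1 (0.57), and XRCC3 without Vem replicate 2 (0.69).

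**Figure D4:**
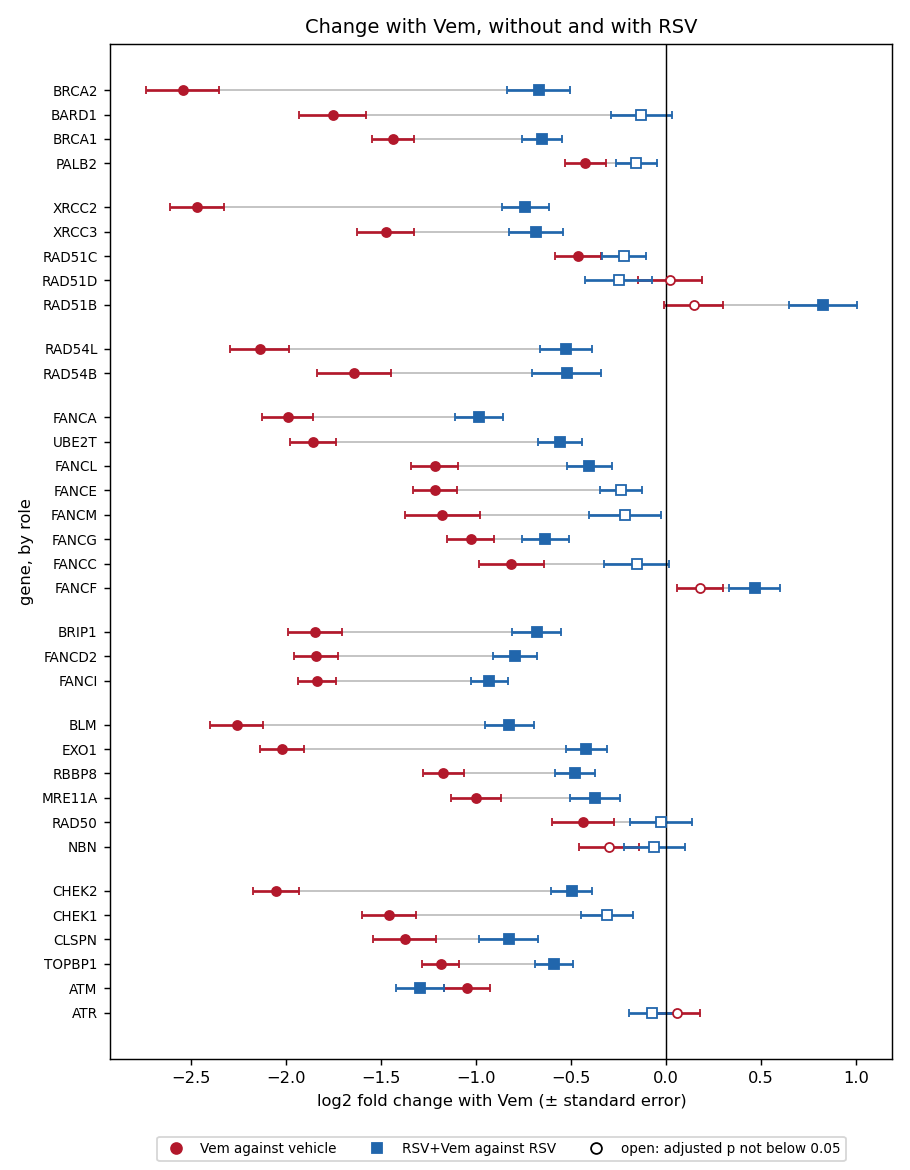
Log2 fold change with Vem (x axis, ± standard error) for each of the 34 genes (y axis, grouped by role), without RSV (red circles, Vem against vehicle) and with RSV (blue squares, RSV+Vem against RSV); open symbols have an adjusted p not below 0.05. The blue squares lie nearer 0 than the red circles for most genes, ATM, RAD51D and ATR have the square to the left of the circle, and RAD51B and FANCF lie to the right of 0 with RSV.

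ATM was lowest where RSV and Vem were combined. It stood at 153 and 208 CPM in RSV, at 69.8 and 78.0 in RSV+Vem and at 102 and 91.3 in Vem, and it was higher in the other 3 groups. Its log2 fold change was -1.29 ± 0.13 against RSV (adjusted p = 3.02e-06), -1.44 ± 0.13 against vehicle (adjusted p = 2.72e-07) and -0.39 ± 0.13 against Vem (adjusted p = 0.0222), and the last of these lost its call without Vem replicate 1 or RSV+Vem replicate 1 (-0.31 each). TOPBP1, with 85.9 and 99.6 CPM in RSV+Vem and 84.8 and 86.6 in Vem, also kept a low level (-1.08 ± 0.10 against vehicle, adjusted p = 4.59e-07; 0.11 against Vem, interval from -0.10 to 0.32). FANCD2 in RSV+Vem was still 1.00 log2 units below vehicle and FANCA 0.88 below, although both were above their level in Vem, by 0.84 and 1.11.

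RAD51B and FANCF ran the other way round. In RSV+Vem RAD51B stood at 7.29 and 7.42 CPM, above RSV (0.83 ± 0.18, adjusted p = 0.00306) and below Vem (-0.46 ± 0.17, adjusted p = 0.0384, a call lost without Vem replicate 2 or either RSV+Vem replicate). FANCF stood at 15.2 and 15.6 CPM, below Vem (-0.64 ± 0.13, adjusted p = 0.000904) and above RSV under TMM scaling (0.47 ± 0.13, adjusted p = 0.0171), a direction that turned under spike-in scaling (-0.060) and a call lost without any 1 of the 4 libraries. RAD51C, at 42.7 and 36.3 CPM in RSV+Vem, was the gene called higher than vehicle (0.43 ± 0.12, adjusted p = 0.00739), a rise that also turned under spike-in scaling (-0.23) and was not called without RSV+Vem replicate 1 (0.29).

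A pair of MAPK target transcripts, named after their values were seen, were lower with Vem both without and with RSV. DUSP6, a phosphatase induced by ERK signalling, stood at 111 and 98.5 CPM in vehicle, 1.81 and 0.692 in Vem, 191 and 155 in RSV and 14.5 and 11.9 in RSV+Vem. ETV4, another ERK target, stood at 115 and 112 CPM in vehicle, 1.11 and 0.922 in Vem, 73.4 and 60.1 in RSV and 1.65 and 1.57 in RSV+Vem. The log2 fold change with Vem was -6.35 without and -3.69 with RSV for DUSP6, and -6.79 and -5.35 for ETV4, and both interactions were above 0 (2.66 and 1.43). Their part in the interaction of the repair genes was not tested.

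TCDD did not change any of the 34 genes at an adjusted p below 0.05 by edgeR's quasi-likelihood test, where 6.41% of all genes tested were called. An unadjusted p below 0.05 was reached by 6 of the 34, DESeq2 also called 0, and the median was -0.07. The values ran from -0.47 for BRCA2 (interval from -0.83 to -0.12, adjusted p = 0.105) to 0.36 for RAD51B (interval from 0.04 to 0.68, adjusted p = 0.169). BRCA2 stood at 39.2 and 39.5 CPM in TCDD, both below the vehicle libraries, and was called lower in 3 of the alternative fits. Even for genes close to 0 the intervals still allow a small change either way, from -0.28 to 0.21 for XRCC2 and from -0.27 to 0.22 for FANCL. Of 5 AhR response genes, 4 rose with TCDD in the same libraries, with a median of 1.04.

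Compared directly, Vem was lower than TCDD for 28 of the 34 genes and higher for 0, with a median of -1.16. Of all genes tested, 26.5% were called lower and 24.1% higher. The deepest differences were XRCC2 (-2.44 ± 0.14, adjusted p = 1.21e-09), BLM (-2.19 ± 0.14, adjusted p = 3.5e-09) and CHEK2 (-2.16 ± 0.12, adjusted p = 6.86e-10). RAD51B, RAD51D, FANCF, ATR, NBN and RAD50 did not pass. ATR (0.29, adjusted p = 0.0532) was called higher in Vem than in TCDD in 5 of the alternative fits, with adjusted p between 0.00155 and 0.0423, and spike-in scaling left 19 of the 34 called lower. Both comparisons of Vem use the same 2 Vem libraries.

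**Figure D5:**
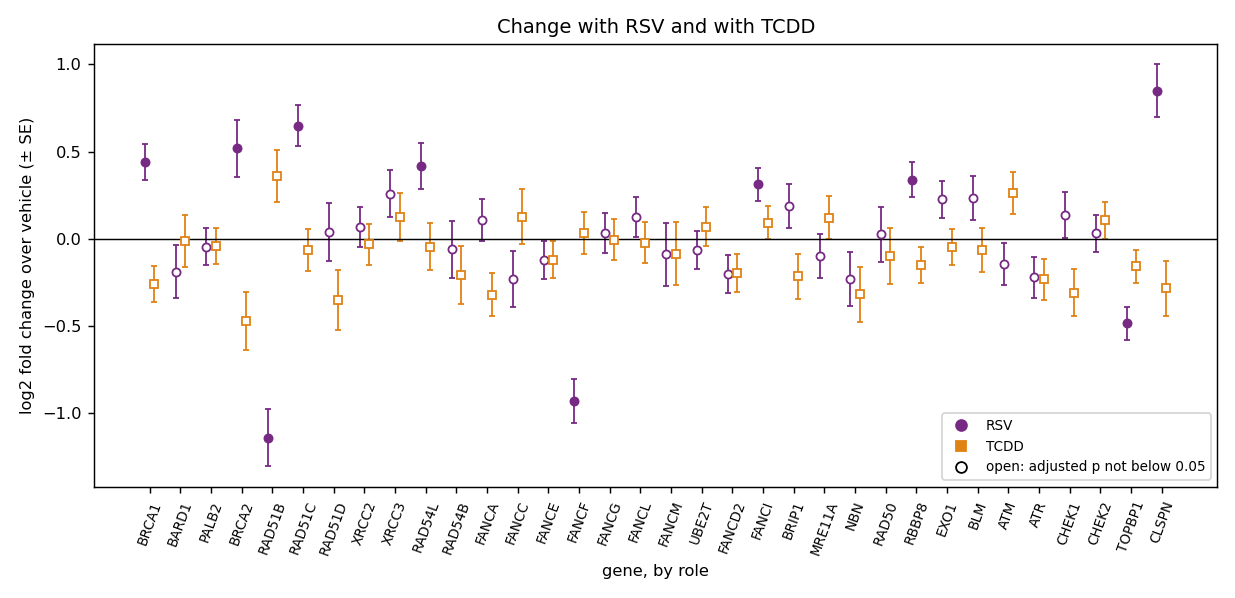
Log2 fold change over vehicle (y axis, ± standard error) of each of the 34 genes (x axis, by role) with RSV (purple circles) and with TCDD (orange squares); open symbols have an adjusted p not below 0.05. All TCDD squares are open, and the filled RSV circles are 7 above and 3 below 0, from -1.14 for RAD51B to 0.85 for CLSPN.

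With RSV present, TCDD changed 0 of the 34 genes by edgeR's quasi-likelihood test (background 5.70%), 6 had an unadjusted p below 0.05, and DESeq2 called 2, BRCA2 (-0.53) and CLSPN (-0.49), both lower. Spike-in scaling, under which the median of all genes was -1.02 and that of the 34 was -1.12, called 24 of the 34 lower. The median of the 34 was thus close to that of all genes. The share of all genes called under that scaling was not taken, so the count is not read as particular to the 34. The interaction of RSV and TCDD was called in 0 of the 34, with 0 at an unadjusted p below 0.05 and 0 by DESeq2, where 0.124% of all genes tested were called. RSV+TCDD against TCDD gave 7 genes higher and 3 lower under TMM scaling (background 18.6% and 19.1%). The 7 were BRCA1 (0.52), RAD51C (0.47), BRCA2 (0.47), RAD54L (0.39), RBBP8 (0.38), FANCI (0.28) and CLSPN (0.65), all of which turned negative under spike-in scaling. The 3 were RAD51B (-1.16 ± 0.16, adjusted p = 4.73e-05), FANCF (-0.72 ± 0.12, adjusted p = 0.00032) and ATM (-0.46 ± 0.12, adjusted p = 0.0066), at 5.12 and 5.37, 13.1 and 13.2, and 174 and 174 CPM in RSV+TCDD. RSV against vehicle and RSV+TCDD against TCDD share no library, and RAD51B and FANCF were the members with the deepest falls in each. Without TCDD replicate 1, 4 of the 34 were called in RSV+TCDD against TCDD, and without TCDD replicate 2, 6 were. FANCI lost its call without any 1 of the 4 libraries, BRCA2 and RBBP8 in 3 of those 4 fits, RAD54L in 2, and CLSPN, RAD51C and ATM in 1 each.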

How the data were processed

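RNA of 501Mel cells from 6 groups of 2 libraries was sequenced as stranded paired reads (TruSeq Stranded mRNA, NextSeq500). The authors aligned the reads with STAR 2.4.0a to hg19, the build GRCh37, and counted primary alignments per gene symbol with featureCounts of subread 1.5.0-p3. The release of the counted annotation is not given in the sources used here. The deposited values are raw counts, not normalized. Beside the 56638 gene symbols the table lists 96 controls, including 92 ERCC spike-ins, and these controls entered neither library sizes nor tests.

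From these counts, genes were kept with filterByExpr by group (16080 genes), scaled with TMM and fitted with edgeR 4.0.16 (limma 3.58.1, R 4.3.3) in 1 quasi-likelihood model over all 12 libraries with 1 term per group. For each of 11 comparisons the F test of that model was used, two-sided, with p-values adjusted by Benjamini-Hochberg over all genes tested. Genes with adjusted p under 0.05 were called. The interaction was taken as the effect of RSV with a ligand minus its effect without. Standard errors were taken as the log2 fold change over the square root of F. On simulated counts for Vem against vehicle over 15585 genes, 193 of 200 changed genes and 13 others were called. For the interaction of RSV and Vem, 161 of 200 and 12 others were called. The simulation changed only those 200 well-counted genes, all by the same amount up or down and only in the Vem group. In the data 52.4% of all genes tested were called with Vem, and many changes were smaller. The simulation therefore does not give the sensitivity or error rate of the calls reported here.

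The 34 genes and all lists were chosen with earlier results of these data known. Values in every library, standard errors and p-values are given for the 5 called genes that changed most with Vem, with RSV and in each interaction, and for the pair that moved most and the pair that moved least in each role with Vem. Of each other list the called gene with the largest rise and fall with Vem is named, except for some genes that are not reported here. Positions are from GENCODE 44 lifted to GRCh37, promoters from RefSeq on GRCh38.p14. Alternatives were DESeq2 1.42.0, RLE factors, spike-in scaling, no filter, a minimum of 10 counts in all libraries, a replicate block, fits restricted to the libraries compared, and each library left out. Across 753 gene and antisense pairs, between 94.5% and 95.2% of counts lay on the named gene, and pseudogene copies of CHEK2 and FANCD2 held at most 8 counts a library.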

Additional observations from a re-analysis of the deposited data

Results flagged for a closer look

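In 23 of the 34 repair genes the effect of Vem differed between cells without and with RSV, by the interaction term in edgeR (adjusted p below 0.05), and in each the log2 fold change with Vem was less negative, or for RAD51B more positive, with RSV present. Of all genes tested, 22.7% had a called interaction and 12.0% a called one of that sign. Scaled to the spike-ins, 0 of the 34 were called. On the log2 scale the interaction was 1.87 for BRCA2, 1.73 for XRCC2, 1.63 for BARD1, 1.61 for RAD54L, 1.60 for EXO1, 1.56 for CHEK2 and 1.44 for BLM. It was 1.30 for UBE2T, 1.17 for BRIP1, 1.15 for CHEK1, 1.12 for RAD54B, 1.05 for FANCD2 and 1.01 for FANCA. Smaller values were those of FANCE (0.98), FANCM (0.96), FANCI (0.91), FANCL (0.81), XRCC3 (0.79), BRCA1 (0.78), RBBP8 (0.69), RAD51B (0.68), MRE11A (0.63) and TOPBP1 (0.60). With 2 libraries a group, no group was large enough to look for a sample far from the others.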

How the results depend on the processing

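Of the values of called genes under each alternative, 1743 kept their direction and call, 199 lost the call and 9 turned, all 9 under spike-in scaling. Scaling to the ERCC spike-ins, whose share differed within groups, took the median of all genes, under TMM scaling between -0.03 and 0.03 in each comparison, to -0.68 for Vem, -0.17 for RSV, -0.51 for TCDD, -0.70 for RSV+Vem against vehicle, -1.02 for RSV+TCDD against RSV and -0.70 for RSV+TCDD against TCDD. It called 0 genes for RSV against vehicle, 3 for RSV+Vem against RSV, 6 for RSV+Vem against Vem, 24 lower for RSV+TCDD against RSV, 2 for RSV+TCDD against TCDD and 0 for the interaction of RSV and Vem. The share of all genes called under spike-in scaling was not taken, so these counts have no background beside them. Under it RAD51C in RSV+Vem against vehicle was -0.23, FANCF in RSV+Vem against RSV was -0.060, and in RSV+TCDD against TCDD the values were BRCA1 -0.17, BRCA2 -0.26, RAD51C -0.22, RAD54L -0.26, FANCI -0.41, RBBP8 -0.32 and CLSPN -0.015. TCDD against vehicle called 1 gene, BRCA2, without a filter, with the replicate block and with only the libraries compared. RSV+TCDD against RSV called 2, BRCA2 and CLSPN, by DESeq2 and without a filter, and 1, BRCA2, with the replicate block. Leaving out 1 library gave 27 to 29 called genes for Vem against vehicle, 6 to 12 for RSV, 0 to 2 for TCDD (FANCA and CLSPN without vehicle replicate 1), 26 to 29 for Vem against TCDD, 10 to 21 for RSV+Vem against vehicle, 14 to 21 against RSV, 24 to 27 against Vem, 0 to 1 for RSV+TCDD against RSV, 4 to 8 against TCDD, 20 to 24 for the interaction of RSV and Vem, and 0 for that of RSV and TCDD. The cause of these differences was not tested.

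The replicate block gave 30 called genes for Vem against vehicle, NBN being added, and 22 for the interaction of RSV and Vem, and otherwise changed counts by at most 1. Replicate numbers were not taken to pair libraries. Among the 15 group pairs, same-numbered libraries deviated together with correlations between -0.12 and 0.15, and 3 of the 15 exceeded 0.1. These 3 were the pairs among the groups with RSV: RSV with RSV+Vem (0.15), RSV with RSV+TCDD (0.15) and RSV+Vem with RSV+TCDD (0.12). A weak pairing within those groups is therefore not excluded.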
